A study of Homo sapiens with 15 samples.

Results

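Plate cells labelled HF7 were compared with plate cells labelled HF6, plate by plate, in DiFi cells, an established line from a human colorectal cancer. The libraries were found by their labels: 3 HF7 plate libraries (plates 1, 2 and 3) and 3 HF6 plate libraries (plates 1, 2 and 3), paired by plate number, 6 of the 14 libraries with a column in the miRNA count table. All 6 carry the same cell line and tissue label, and no drug, time or genetic change is given for either label. The labels do not spell out HF, and do not say what sets HF7 apart from HF6 or plate 1 apart from plate 2. They also do not say whether the plates are separate cultures, so the p-values cover only the spread among these libraries, which may be technical. The series tried ways of culturing the cells to collect extracellular small RNA, and its title names supermeres, small extracellular particles without a membrane. For the plates, the comparison asks which miRNAs differed between HF6 and HF7 cells. It cannot show that the others were the same. The pellet and HDM libraries of HF7 and HF6 were not used in the plate test and are given at the end.

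miRNAs are short RNAs cut from hairpin transcripts by Drosha and Dicer and loaded into Argonaute, where the seed at their 5' end pairs with target messenger RNAs. Cells of the intestinal epithelium are rich in the miR-200 family, which holds epithelial character, and in miR-192 and miR-194, whose hairpins lie next to each other. Some entries of miRNA catalogues are identical to a stretch of a longer RNA, such as a mitochondrial rRNA, a tRNA or a small nuclear RNA, and reads of these entries cannot be assigned to a miRNA hairpin by sequence alone.

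The mature sequences below are those of RefSeq on GRCh38.p14, with the seed (bases 2 to 8) in capitals. The first 4 are the miRNAs that differed between HF7 and HF6 plates; the first 3 of them are identical to part of a longer RNA, and the fourth holds a run of 10 U.
miR-4485-3p: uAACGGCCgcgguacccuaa
miR-4284: gGGCUCACaucaccccau
miR-1246: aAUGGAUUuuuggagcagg
miR-3613-5p: uGUUGUACuuuuuuuuuuguuc
The next 2 share a seed and were higher in HF7 in each plate pair without passing the test.
miR-1260a: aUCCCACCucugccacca
miR-1260b: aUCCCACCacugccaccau
The last 3 had the widest gaps between the plate pairs among miRNAs that averaged 100 CPM or more.
miR-1248: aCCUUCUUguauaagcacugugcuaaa
miR-210-3p: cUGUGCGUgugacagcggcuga
miR-193b-3p: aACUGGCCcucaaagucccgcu
miR-4485-3p lies at chr11:10508277-10508296 on the minus strand, in an exon of MTRNR2L8, a nuclear copy of the mitochondrial 16S rRNA gene. miR-4284 lies at chr7:73711327-73711344 on the plus strand, within an intron of STX1A on the opposite strand. miR-1246 lies at chr2:176601024-176601042 on the minus strand. miR-3613-5p lies at chr13:49996465-49996486 on the minus strand, in an intron of the non-coding gene DLEU2, which also hosts miR-15a and miR-16-1.

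The plate libraries held 2664147, 3364807 and 3816494 counts in HF7 plates 1, 2 and 3, and 3771606, 4184896 and 1246485 counts in HF6 plates 1, 2 and 3. An entry with 3 counts, the limit that a count of 0 allows, corresponds to 0.717 to 2.41 CPM (counts scaled by TMM to a common library total). These floors, and all intervals below, cover counting error only, because the table carries no molecular identifiers. The 7 intestinal epithelium markers summed to 253259 to 264980 CPM in HF7 plates and 254889 to 264658 CPM in HF6 plates. The 5 leukocyte markers summed to 2561 to 3318 CPM in HF7 plates and 2756 to 4100 CPM in HF6 plates, nearly all of it miR-142, and miR-223-3p had no count in 5 of the 6 libraries. The 3 erythroid markers summed to 4.13 to 6.55 CPM in HF7 plates and 4.77 to 8.02 CPM in HF6 plates, and the 5 stromal and muscle markers in the table to 9.21 to 22.9 CPM in HF7 plates and 7.89 to 19.1 CPM in HF6 plates. The endothelial pair, miR-126-3p and miR-126-5p, summed to 60.3 to 114 CPM in HF7 plates and 53.8 to 129 CPM in HF6 plates. The ranges of HF7 and HF6 overlapped for every one of these lists, and for the neural and liver markers. Within plate pairs, the erythroid sum was lower in HF7 in all 3 (4.13, 4.16 and 6.55 CPM in HF7 plates 1, 2 and 3, and 4.77, 7.65 and 8.02 CPM in HF6 plates 1, 2 and 3). The stromal and muscle sum was higher in HF7 in all 3 (22.9, 9.21 and 14.4 CPM in HF7 plates, and 19.1, 7.89 and 12.8 CPM in HF6 plates). With this scaling the other lists differed in sign between pairs or were at 0. The intestinal epithelium sum was lower in HF7 in plates 1 and 2. In plate 3 it was 264980 CPM in HF7 and 264658 CPM in HF6, with TMM factors of 1.06 and 1.01. TMM scaling therefore puts it lower in HF7 in plate 3 too. The part of the low-level markers in the results was not tested.

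HF7 and HF6 cells of the same plate number had closely similar miRNA profiles. Over the 177 miRNAs that averaged 100 CPM or more across the 6 libraries, the median absolute log2 ratio of HF7 over HF6 was 0.17 in plate 1, 0.17 in plate 2 and 0.19 in plate 3. The HF7 over HF6 ratio was past 1.5-fold in either direction for 4 miRNAs in plate 1 (2.26%), 11 in plate 2 (6.21%) and 17 in plate 3 (9.60%). Libraries of the same HF label but different plate number lay farther apart where plate 1 was one of them. HF7 plate 1 differed past 1.5-fold at 78 miRNAs from HF7 plate 2 and at 75 from HF7 plate 3, and HF6 plate 1 at 71 from HF6 plate 2 and at 69 from HF6 plate 3. Plates 2 and 3 differed at 28 miRNAs in HF7 and at 12 in HF6. Plate 1 therefore stood apart from plates 2 and 3 under both labels, and the HF7 to HF6 comparison was made within plate numbers. Same-numbered libraries also deviated together from the mean of their HF label, with correlations across these miRNAs of 0.92 for plate 1, 0.85 for plate 2 and 0.71 for plate 3. HF7 plate 2 also deviated with HF6 plate 3 (0.59), and HF7 plate 3 with HF6 plate 2 (0.44), while plate 1 correlated negatively with plates 2 and 3. Because plate 1 stood apart under both labels, these correlations show little about how plates 2 and 3 pair.

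**Figure D1:**
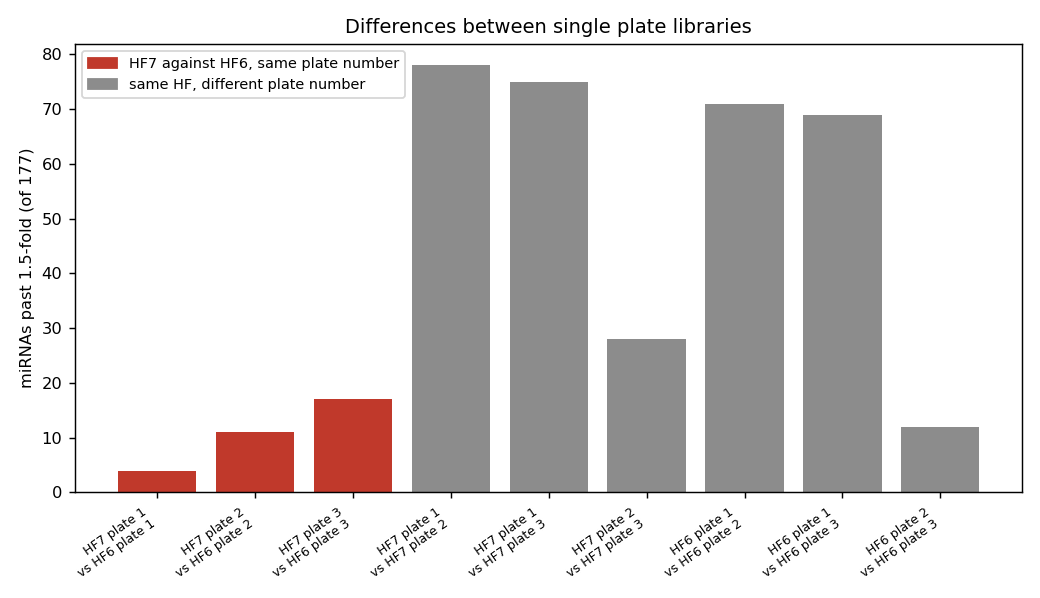
Number of miRNAs, out of the 177 that averaged 100 CPM or more, whose ratio between 2 plate libraries was past 1.5-fold (vertical axis), for HF7 against HF6 of the same plate number (red) and for 2 plates of the same HF label (grey). The 3 HF7 to HF6 pairs stand at 4, 11 and 17, against 69 to 78 for the pairs of plate 1 with another plate of its label.

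Of the 497 miRNAs tested with plate number as a block, 4 (0.805%) differed between HF7 and HF6 plates at an adjusted p under 0.05 in edgeR's quasi-likelihood test. Higher in HF7 were 3 (0.604%), namely miR-4485-3p, miR-4284 and miR-1246, and lower in HF7 was 1 (0.201%), miR-3613-5p. All 3 that rose are entries identical to part of a longer non-coding RNA. At an unadjusted p under 0.05 there were 40 miRNAs, 15 higher and 25 lower in HF7, and the median log2 fold over all tested miRNAs was -0.02. Leaving out any plate pair gave 0 calls, with 1 residual degree of freedom left, and so did the fit without the block, in which the log2 folds of miR-4284, miR-4485-3p, miR-1246 and miR-3613-5p were 0.83, 0.78, 0.86 and -0.63. With all libraries thinned to the depth of HF6 plate 3 there were also 0 calls, with log2 folds of 0.78, 0.81, 0.74 and -0.69 in the same order and adjusted p of 0.183 to 0.404 in edgeR. With 2 residual degrees of freedom for each miRNA, the p-values and SE of the full fit rest on a spread shared across all tested miRNAs. How far the 3 plate pairs of a miRNA disagree hardly enters them. With 3 pairs, an exact sign-flip permutation test of 1 miRNA cannot go below a two-sided p of 0.25.

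The mitochondrial rRNA entry miR-4485-3p had the smallest p of the comparison. Its level was 2538, 2106 and 1850 CPM in HF7 plates 1, 2 and 3, against 918, 1544 and 1313 CPM in HF6 plates 1, 2 and 3. Every HF7 plate lay above every HF6 plate, and the gap was widest in plate 1, where the HF7 level was the highest of the 6 and the HF6 level the lowest. The log2 ratio of HF7 over HF6 was 1.47 in plate 1 (counting interval 1.41 to 1.53), 0.45 in plate 2 (0.40 to 0.50) and 0.49 in plate 3 (0.42 to 0.57). The fit gave a log2 fold of 0.80 ± 0.16 (SE), or 1.74-fold higher in HF7, with an adjusted p of 0.000393 in edgeR. Without plate 1 the log2 fold was 0.50, with an adjusted p of 0.287 in edgeR. The 20 bases of the entry are identical to MT-RNR2, the mitochondrial 16S rRNA, at positions 2563 to 2582 of the mitochondrial genome. Its other arm, miR-4485-5p, matches the same rRNA a few bases upstream, at positions 2539 to 2554. miR-4485-5p stood at 32.5, 60.9 and 47.6 CPM in HF7 plates and 23.0, 44.8 and 26.2 CPM in HF6 plates. It was higher in HF7 within each plate pair, but the groups overlapped and it did not pass the test, with a log2 fold of 0.58 ± 0.21 and an adjusted p of 0.238 in edgeR.

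miR-4284 had a level of 146, 111 and 106 CPM in HF7 plates 1, 2 and 3, against 55.8, 83.0 and 65.9 CPM in HF6 plates 1, 2 and 3. The groups did not overlap here either, and plate 1 again held both the highest HF7 level and the lowest HF6 level. The log2 ratios of HF7 over HF6 were 1.38, 0.42 and 0.68 in plates 1, 2 and 3, and the fit gave 0.83 ± 0.19, or 1.78-fold higher in HF7, with an adjusted p of 0.00372 in edgeR. These levels rest on 356, 397 and 427 counts in HF7 plates and 192, 367 and 83 counts in HF6 plates. The 18 bases of miR-4284 are identical to MT-TF, the mitochondrial tRNA for phenylalanine, at positions 625 to 642 of the mitochondrial genome.

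miR-1246, an entry known as abundant in extracellular samples of colorectal cancer cells, was highest in plate 1 of both HF7 and HF6. Its level was 2722, 230 and 342 CPM in HF7 plates 1, 2 and 3, against 1439, 182 and 197 CPM in HF6 plates 1, 2 and 3. Because plate 1 was far above plates 2 and 3 under both labels, the groups overlapped, but HF7 was the higher one in each pair. The log2 ratios were 0.92, 0.34 and 0.79, and the fit gave 0.69 ± 0.17, or 1.61-fold higher in HF7, with an adjusted p of 0.0114 in edgeR. Without the block its log2 fold was 0.86 ± 1.09. The 19 bases of miR-1246 occur in 8 annotated U2 small nuclear RNA genes and copies, RNU2-1 among them. U2 is the part of the spliceosome that pairs with the branch point of introns.

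**Figure D2:**
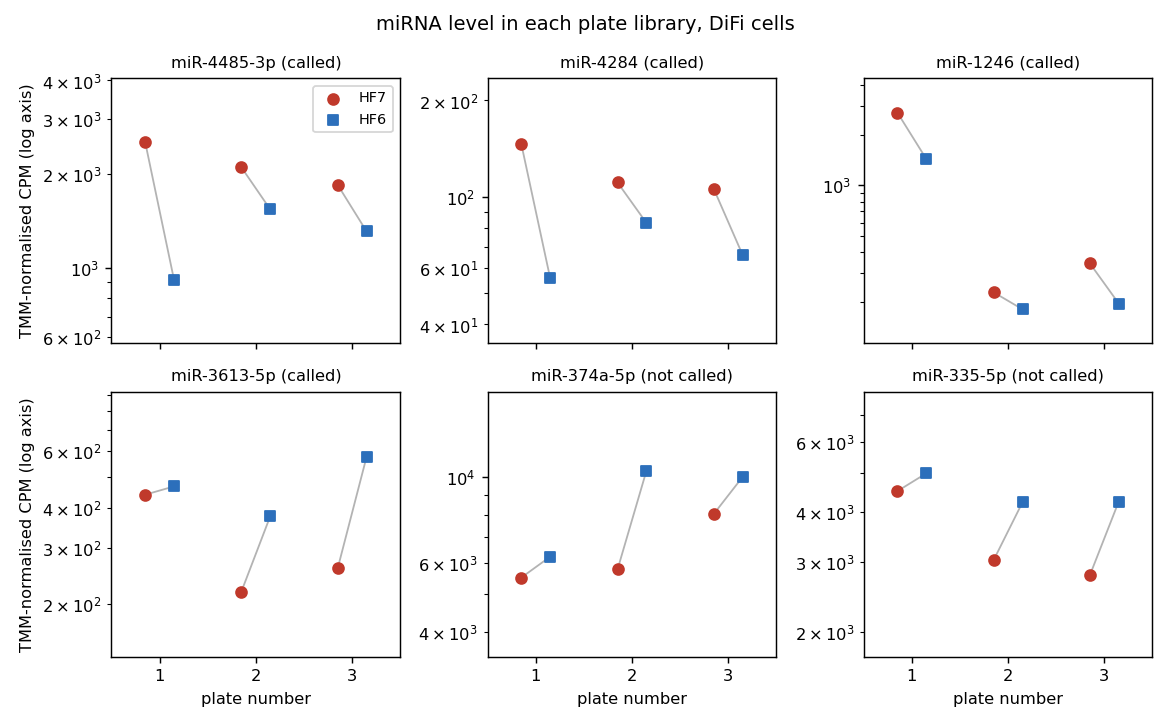
Level in TMM-normalised CPM (vertical, log axis) of 6 miRNAs in each plate library, by plate number, with HF7 as red circles left of HF6 as blue squares and a line joining each pair. miR-4485-3p and miR-4284 are higher in HF7 in each pair without overlap, miR-1246 is higher in each pair but highest in plate 1 of both HF7 and HF6, and miR-3613-5p is lower in HF7 by little in plate 1 and by more in plates 2 and 3.

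miR-3613-5p was the 1 miRNA called lower. Its level was 439, 219 and 258 CPM in HF7 plates 1, 2 and 3, against 466, 376 and 576 CPM in HF6 plates 1, 2 and 3. The groups overlapped, since HF7 plate 1 lay above HF6 plate 2, and the plate 1 pair was nearly level. The log2 ratios were -0.09 in plate 1, where the counting interval of -0.20 to 0.03 spans 0, -0.78 in plate 2 and -1.16 in plate 3. The fit gave -0.67 ± 0.18, with an adjusted p of 0.0187 in edgeR. Without plate 3 the log2 fold was -0.43, with an adjusted p of 0.962 in edgeR. This call was lost in DESeq2 (adjusted p = 0.175) and with the trend on GC content removed (log2 fold -0.45, adjusted p = 0.485 in edgeR). miR-3613-5p has a GC content of 22.7%. Its other arm, miR-3613-3p, averaged only 5.77 CPM and had log2 ratios of -0.03, 0.58 and -0.58 and a fit of 0.12 ± 0.42. miR-15a-5p, which comes from the same host gene DLEU2, had log2 ratios of 0.31, 0.06 and -0.44 and a fit of -0.02 ± 0.17.

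Entries identical to part of another RNA class were looked at as a group, because the 3 miRNAs that rose are among them. Of the 1619 entries in the table, 15 have an exact match in an annotated transcript of another class, and 12 of these were tested. The test called 3 of the 12 higher in HF7 and 0 lower, set beside 0.604% called higher over all tested miRNAs, and the matches were looked up after the calls were seen. In all 3 plate pairs 4 of the 12 were higher in HF7 and 0 were lower, beside 11.9% higher and 14.3% lower in all 3 over all tested miRNAs. These 4 are the 3 called miRNAs and miR-4485-5p, the other arm of miR-4485-3p, so the count adds no separate support. Of the 12, 4 are mitochondrial, and the most abundant of these, miR-12136, is identical to MT-TS1, the mitochondrial tRNA for serine. Its level was 5404, 2545 and 2560 CPM in HF7 plates and 5752, 1738 and 2402 CPM in HF6 plates. It was highest in plate 1 under both labels, the groups overlapped, and the fit gave 0.18 ± 0.15 with an adjusted p of 0.904 in edgeR. Summed over the 4 mitochondrial entries, the level was 8121, 4823 and 4564 CPM in HF7 plates 1, 2 and 3. In HF6 plates 1, 2 and 3 the sum was 6749, 3410 and 3807 CPM, lower than in HF7 within each pair. The sum holds miR-4485-3p and miR-4284, which were already called higher, so it adds no separate support. In plate 1 the most abundant member, miR-12136, was lower in HF7. miR-1248, identical to part of the small nucleolar RNA SNORA81 in the gene EIF4A2, did not keep a sign across plates, with log2 ratios of -0.39, 0.53 and -1.43. A broader list of 32 entries, written as overlapping rRNA, tRNA, snRNA, snoRNA or mitochondrial sequence, had 19 tested, of which the same 3 were called higher and 0 lower. Some of its members, miR-1260a, miR-1260b and miR-12135 among them, had no exact match in the lookup used here. The median log2 fold of that list was 0.25. In all 3 plate pairs 8 of the 19 were higher in HF7 and 0 were lower, beside the same 11.9% and 14.3% of all tested miRNAs. The 8 hold the 3 called miRNAs, miR-4485-5p, and the seed mates miR-1260a and miR-1260b, so this count is no separate support either. The broader list was written with earlier results of these data known. The counts do not separate reads of a hairpin from reads of the longer RNA, and no measure of RNA quality is in the table, so the part of either in these values was not tested.

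**Figure D3:**
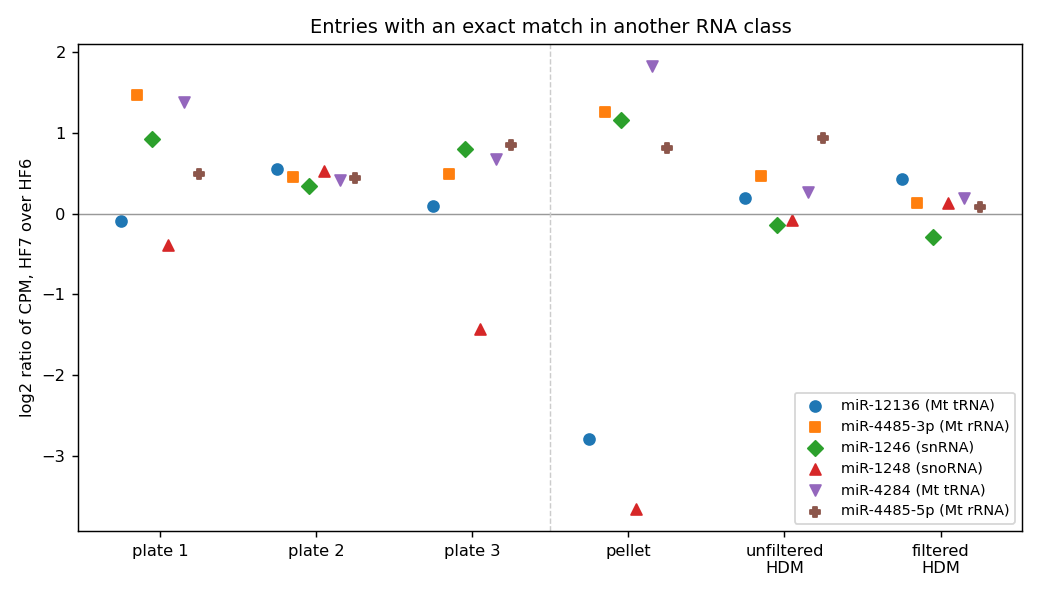
Log2 ratio of HF7 over HF6 (vertical axis) for the 6 most abundant tested entries with an exact match in another RNA class, in the 3 plate pairs and, right of the dashed line, in the pellet and HDM pairs with 1 library a group. miR-4485-3p, miR-4284 and miR-1246 lie above 0 in all 3 plate pairs and the pellet, while miR-1248 and miR-12136 fall on both sides.

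No other miRNA passed the test. Among abundant miRNAs with the same sign in all 3 plate pairs, those with the smallest p are given as values. On the higher side, miR-1260a stood at 84.7, 140 and 208 CPM in HF7 plates and 61.7, 130 and 117 CPM in HF6 plates. miR-1260b, which has the same seed, stood at 95.8, 143 and 217 CPM in HF7 plates and 71.0, 139 and 114 CPM in HF6 plates. Both were higher in HF7 in each pair, by most in plate 3 and by little in plate 2. Their log2 folds were 0.46 ± 0.19 and 0.45 ± 0.19, each with an adjusted p of 0.324 in edgeR. Both belong to the broader list of entries written as overlapping other RNA classes, but neither had an exact match in the lookup used here.

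On the lower side, miR-374a-5p, from the non-coding gene FTX on the X chromosome, stood at 5513, 5786 and 8045 CPM in HF7 plates and 6242, 10386 and 10025 CPM in HF6 plates. It was lower in HF7 in each pair, by most in plate 2, with a log2 fold of -0.45 ± 0.14 and an adjusted p of 0.0925 in edgeR. Its other arm, miR-374a-3p, had log2 ratios of -0.03, -0.86 and -0.15 in plates 1, 2 and 3. miR-374b-5p, which has the same seed and also comes from FTX, had log2 ratios of 0.01, 0.91 and -0.26. In plate 2 the seed mates had opposite signs, with miR-374b-5p at 2414 CPM in HF7 and 1286 CPM in HF6. miR-335-5p, from an intron of the imprinted gene MEST, stood at 4508, 3030 and 2778 CPM in HF7 plates and 4995, 4228 and 4247 CPM in HF6 plates. It was lower in HF7 in each pair, but HF7 plate 1 lay above HF6 plates 2 and 3, and the log2 fold was -0.41 ± 0.15 with an adjusted p of 0.238 in edgeR. miR-30e-5p stood at 12344, 8978 and 13798 CPM in HF7 plates and 12764, 14195 and 17718 CPM in HF6 plates, with a log2 fold of -0.36 ± 0.13 and an adjusted p of 0.260 in edgeR. The 4 other tested miRNAs with its seed had log2 folds between -0.23 and -0.05, and none passed. miR-125a-5p, made with miR-99b and let-7e, stood at 434, 101 and 36.5 CPM in HF7 plates and 565, 150 and 54.0 CPM in HF6 plates. HF7 was lower in each pair, with log2 ratios of -0.38, -0.57 and -0.56, and the log2 fold of -0.50 ± 0.19 had an adjusted p of 0.260 in edgeR.

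Several abundant miRNAs differed between HF7 and HF6 in opposite directions from plate to plate. miR-210-3p, the miRNA best known for induction by hypoxia, stood at 527, 92.8 and 372 CPM in HF7 plates 1, 2 and 3 and 903, 106 and 198 CPM in HF6 plates 1, 2 and 3. HF7 was lower in plates 1 and 2 and higher in plate 3, with log2 ratios of -0.78, -0.20 and 0.91, and the fit gave -0.04 ± 0.18. That SE comes from the spread shared across miRNAs and hardly holds the gap of 1.68 between these ratios. The fit therefore does not show miR-210-3p to be level. miR-193b-3p stood at 272, 164 and 150 CPM in HF7 plates and 326, 73.7 and 86.5 CPM in HF6 plates. It was lower in HF7 in plate 1 and higher in plates 2 and 3, with log2 ratios of -0.26, 1.15 and 0.79, and its fit of 0.54 ± 0.19 had an adjusted p of 0.196 in edgeR. The gap of 1.41 between its ratios is hardly held in that SE either. miR-32-5p, encoded in an intron of TMEM245, showed the opposite pattern, with log2 ratios of 0.38, -0.70 and -0.58. miR-106b-3p, the minor arm of a hairpin in an intron of MCM7, had ratios of -0.09, -0.41 and 0.66. miR-1248 stood at 365, 741 and 281 CPM in HF7 plates and 480, 514 and 757 CPM in HF6 plates, and the sign of its difference alternated between the plates.

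Whether the HF7 to HF6 difference of plate 1 differed from that of plates 2 and 3 was tested with an interaction term. Of 497 miRNAs, 0 (0%) passed in edgeR, with 34 at an unadjusted p under 0.05, and 0 passed in DESeq2 and in limma-voom. The smallest adjusted p in edgeR was 0.122, and the fit had 1 residual degree of freedom. The difference of plate 1 minus that of plates 2 and 3 was -1.25 ± 0.39 on the log2 scale for miR-193b-3p (adjusted p = 0.201 in edgeR). It was -1.14 ± 0.39 for miR-210-3p and 0.996 ± 0.35 for miR-4485-3p, each with an adjusted p of 0.349 in edgeR.

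**Figure D4:**
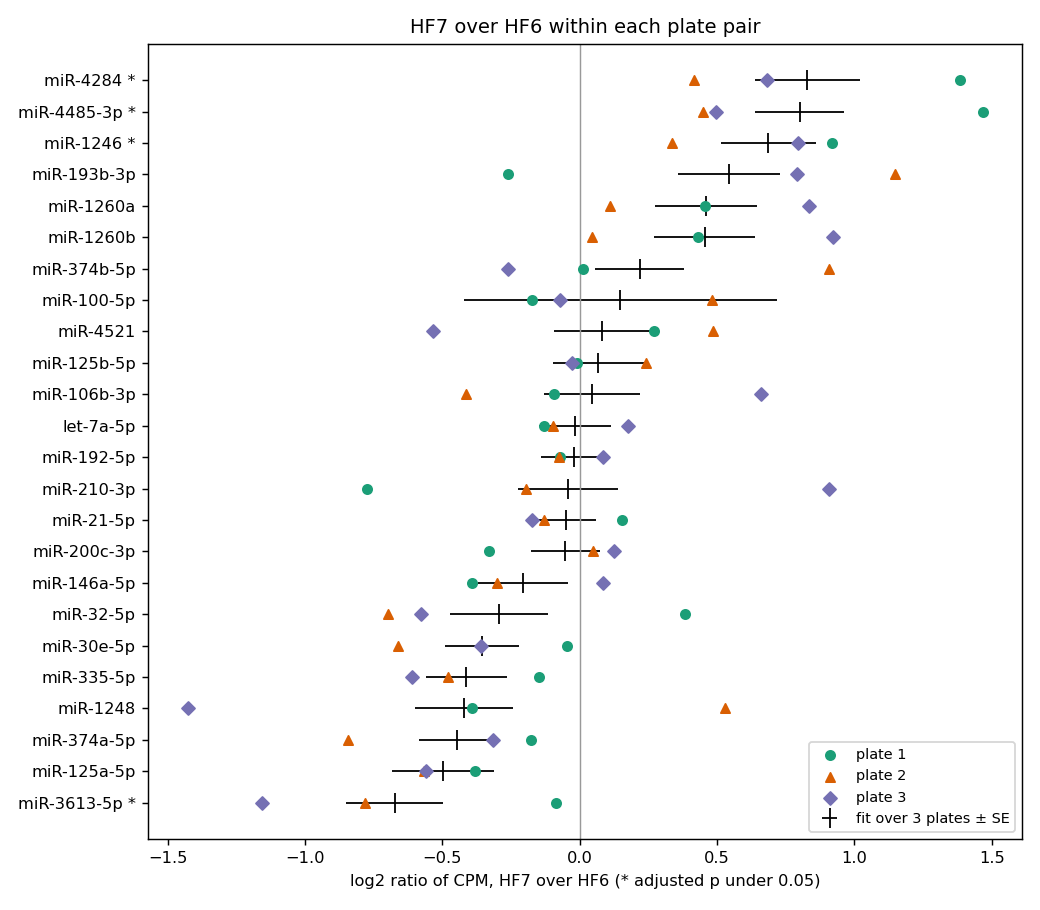
Log2 ratio of HF7 over HF6 (horizontal axis) in plate 1 (circles), plate 2 (triangles) and plate 3 (diamonds) for 24 named miRNAs, with the fit over 3 plates and its SE as a cross, ordered by the fit. The 4 called miRNAs, marked with a star, have 3 plate ratios on the same side of 0, while miR-210-3p, miR-193b-3p and miR-1248 span both sides.

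The most abundant miRNAs and the families that mark these cells did not pass the test. miR-21-5p, the highest entry in each plate library and a miRNA raised in many carcinomas, stood at 210605, 136688 and 121952 CPM in HF7 plates 1, 2 and 3 and 189488, 149474 and 137605 CPM in HF6 plates 1, 2 and 3. It was higher in HF7 in plate 1 and lower in plates 2 and 3, and its log2 fold was -0.05 ± 0.11. miR-200b-3p stood at 78441, 78115 and 79891 CPM in HF7 plates and 78964, 74046 and 79321 CPM in HF6 plates, and miR-192-5p at 47625, 41213 and 51371 CPM in HF7 plates and 50111, 43420 and 48462 CPM in HF6 plates. HF7 and HF6 lay close together in each plate, with log2 folds of 0.03 ± 0.12 for miR-200b-3p and -0.02 ± 0.12 for miR-192-5p. miR-200c-3p, highest in plate 1 under both labels, stood at 36650, 17506 and 22400 CPM in HF7 plates and 46120, 16914 and 20555 CPM in HF6 plates. Its log2 fold was -0.05 ± 0.13. let-7a-5p had a log2 fold of -0.02 ± 0.13, miR-125b-5p of 0.07 ± 0.17, and miR-4521 of 0.08 ± 0.17. miR-146a-5p, an NF-kB target gene, stood at 2319, 434 and 476 CPM in HF7 plates and 3045, 535 and 449 CPM in HF6 plates, with a log2 fold of -0.21 ± 0.16. At 1.49 to 3.35 CPM in HF7 plates and 1.59 to 3.78 CPM in HF6 plates, miR-100-5p was close to the floor, and its log2 fold of 0.15 ± 0.57 could not show a difference at this depth.

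Of 26 lists of related miRNAs with tested members, 25 held no called member, set beside 0.805% called over all tested miRNAs. The other list is that of entries overlapping other RNA classes. Among the 21 lists with at least 4 tested members, the median log2 fold lay between -0.20 and 0.20 for 19. The miR-200 family had 0 of 9 tested members called and a median of 0.03, the let-7 family 0 of 9 and a median of 0.03, and the miR-17-92 cluster with its paralogs 0 of 18 and a median of 0.06. In the miR-200 family 5 of the 9 had a log2 fold above 0. The lowest was that of miR-141-3p, an intestinal epithelium marker, at -0.39 ± 0.14 (adjusted p = 0.260 in edgeR). Its log2 ratios were 0.14, -0.72 and -0.59 in plates 1, 2 and 3. In the miR-30 family 0 of 7 were called, with a median of -0.07, and the miR-23/27/24 clusters had 0 of 11 and a median of -0.11. The group of miR-192, miR-194 and miR-215 had 0 of 6 called and a median of 0.08, with miR-194-5p at 75167, 73790 and 72840 CPM in HF7 plates and 79178, 75651 and 82521 CPM in HF6 plates. That miRNA was lower in HF7 in each pair and did not overlap between the groups, but by a log2 fold of only -0.10 ± 0.12. Of the 4 tested leukocyte markers 0 were called, with a median of -0.24. Of the arms of miR-142, a hairpin of blood cells, miR-142-5p had log2 ratios of 0.06, -0.86 and -0.43, and miR-142-3p of -0.08, -0.38 and -0.35. The others were miR-155-5p, with log2 ratios of 0.47, 0.16 and -0.02 and a fit of 0.19 ± 0.20, and miR-146a-5p, given above. miR-126-5p, an endothelial marker, stood at 21.8, 26.8 and 19.9 CPM in HF7 plates and 59.0, 38.9 and 20.6 CPM in HF6 plates, and its log2 fold of -0.73 ± 0.22 had an adjusted p of 0.0763 in edgeR. Its partner arm miR-126-3p had a log2 fold of 0.13 ± 0.20.

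**Figure D5:**
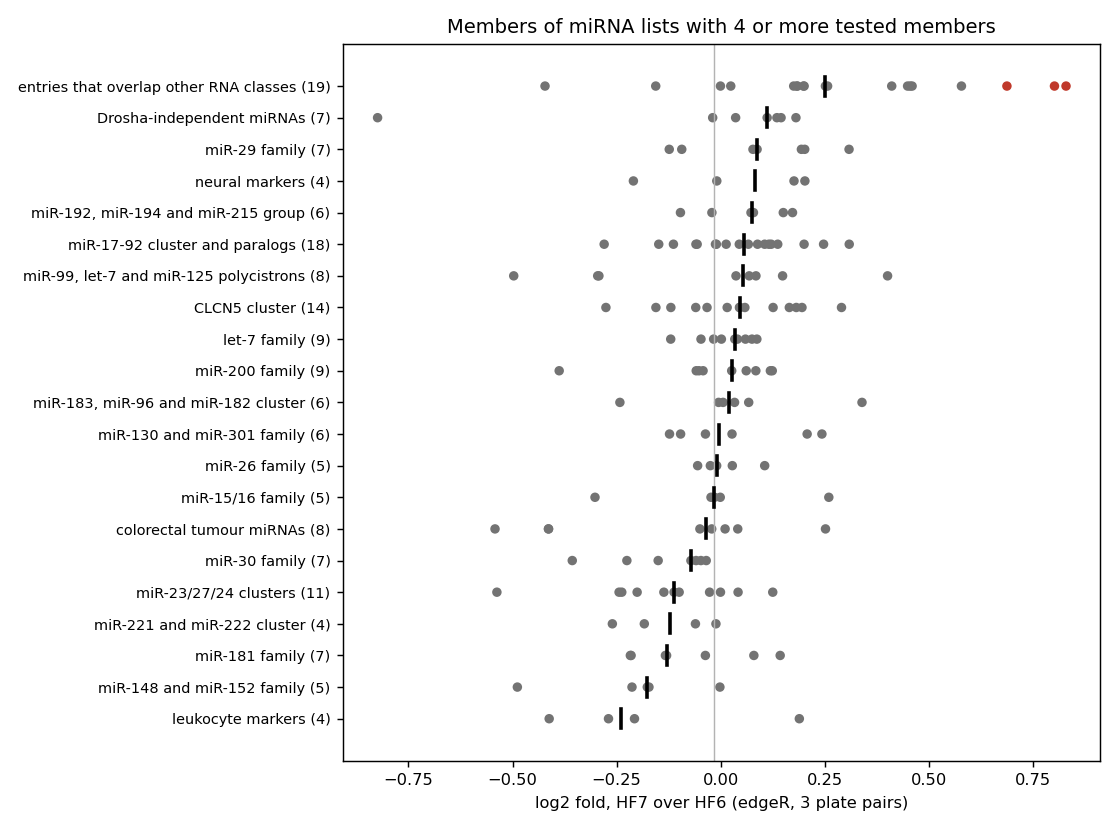
Log2 fold of HF7 over HF6 (horizontal axis, edgeR over 3 plate pairs) for the tested members of 21 lists, 1 point a miRNA, with the number tested in brackets, a black bar at each list's median, called members in red and a grey line at the median of all tested miRNAs. The 3 red points all lie in the list of entries that overlap other RNA classes, and 19 of the 21 medians lie between -0.20 and 0.20.

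Smaller differences with the same sign in every plate were counted without a test. Of the 177 abundant miRNAs, 22 (12.4%) were higher in HF7 in all 3 plate pairs and 27 (15.3%) were lower in all 3, and the other 128 were mixed. Over all 497 tested miRNAs the counts were 59 (11.9%) higher and 71 (14.3%) lower. The balance of higher against lower turned with the scaling, with 25 higher and 20 lower when total counts were the only scaling, so that no direction is given. Examples with even ratios were miR-17-3p, at 0.27, 0.33 and 0.32, and miR-125a-5p, given above. In plate 3 the ratio also went with base composition. Across the 177 miRNAs, Spearman's rho between GC content and the HF7 over HF6 log2 ratio was 0.01 in plate 1, 0.15 in plate 2 and 0.36 in plate 3. This is a correlation across miRNAs of the same libraries, which are not independent replicates. The 25 miRNAs with a GC content under 35% had median log2 ratios of -0.09, -0.13 and -0.26 in plates 1, 2 and 3, and the 29 with a GC content over 55% had -0.11, 0.05 and 0.13. For length, rho was negative in plates 1 and 3, with values of -0.27, 0.05 and -0.27 in plates 1, 2 and 3. HF6 plate 3 was also the shallowest of the 6 libraries. With the GC trend removed, miR-4485-3p, miR-4284 and miR-1246 were still called and miR-3613-5p was not. With all libraries thinned to the depth of HF6 plate 3 none of the 4 was called, although their log2 folds were about as large. For miR-1246 the thinned fit gave 0.74 ± 0.16, against 0.69 ± 0.17 in the reported fit. The degrees of freedom behind the p-values differ between these fits, so the 0 calls after thinning cannot be read as an effect of depth alone. Between length and the fit over 3 plates, rho was -0.27. miR-4485-3p, miR-4284 and miR-1246 are 20, 18 and 19 bases long, and miR-3613-5p is 22 bases long. miR-1260a and miR-1260b are 18 and 19 bases long, and miR-12136, also 18 bases long, had a fit of 0.18 ± 0.15. The part of length in the plate ratios and in the calls was not tested.

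The HF7 and HF6 labels recur in pellets, unfiltered HDM and filtered HDM, with 1 library for each label and so no test. The HF7 pellet and HF7 unfiltered HDM were shallow, at 313382 and 205734 counts, against 3829742 counts for the HF6 pellet and 2256505 for HF6 unfiltered HDM. The HF7 over HF6 ratio was past 1.5-fold for 79 of the 177 miRNAs in pellets (44.6%), 5 in unfiltered HDM (2.82%) and 0 in filtered HDM (0%). Its sign was that of the plate fit for 104 of the 177 in pellets, 95 in unfiltered HDM and 88 in filtered HDM. Across these miRNAs, the correlation with the mean plate log2 ratio was 0.44 in pellets, 0.19 in unfiltered HDM and -0.10 in filtered HDM, as a description. The 4 called miRNAs all had the plate direction in pellets. miR-4485-3p stood at 645 CPM in the HF7 pellet and 268 CPM in the HF6 pellet, a log2 ratio of 1.26, and its log2 ratio was 0.46 in unfiltered and 0.13 in filtered HDM. miR-4284 had log2 ratios of 1.82 in pellets, 0.27 in unfiltered HDM and 0.19 in filtered HDM, the pellet value resting on 23 counts in HF7 and 64 counts in HF6. The third mitochondrial entry named above, miR-12136, was not called. Its log2 ratio was -2.79 in pellets, 0.20 in unfiltered HDM and 0.42 in filtered HDM. miR-1246 had log2 ratios of 1.16 in pellets but -0.14 and -0.29 in unfiltered and filtered HDM. miR-3613-5p stood at 91.1 CPM in the HF7 pellet, from 26 counts, and 1332 CPM in the HF6 pellet, a log2 ratio of -3.86, and was the higher one in HF7 in HDM, with log2 ratios of 0.54 unfiltered and 0.27 filtered. In filtered HDM, then, miR-4485-3p and miR-4284 had the sign of the plates, and miR-1246 and miR-3613-5p had the other one.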

How the data were processed

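Small RNA libraries of DiFi cells were prepared with the miRNeasy and NEXTflex kits, per the labels' protocols. The deposited table gives, for each mature miRNA, expected counts of reads without normalization; cutadapt 2.10, Bowtie 1.3.1, FastQC and GRCh38 are named in the submitters' processing notes. Of the values in the 6 plate columns, 4.60% are fractional; the rule behind them, the annotation release and any filters are not given in the sources used here. Of 15 labelled samples, 14 have a column; the other was not analysed here.

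Values were rounded to whole counts. The 6 plate libraries were fitted in edgeR 4.0.16 (R 4.3.3) with TMM factors, filterByExpr by HF label and the design plate number plus HF label. The filter left 497 of 1619 entries, with 99.95% of the counts. Residual degrees of freedom were 2, and the common dispersion corresponds to a coefficient of variation of 0.148. The p-values and SE rest on a spread shared across the tested miRNAs, and each miRNA's own spread between plates hardly enters. For example, miR-106b-3p and miR-502-3p both had an SE of 0.175, while their plate log2 ratios spanned 1.07 and 0.19. Calls were made where the Benjamini-Hochberg adjusted p over all tested miRNAs was under 0.05. CPM are TMM-normalised, except for the floors and the marker sums, which are scaled by total counts alone. Single-pair log2 ratios add 0.5 CPM, and errors are SE of the fit. Counting intervals are 95% Clopper-Pearson intervals of the ratio of counts. Pairing by plate number rests on the labels. Deviations of same-numbered libraries from their label's mean correlated at 0.92, 0.85 and 0.71 over 177 miRNAs, against 0.59 and 0.44 for plate 2 with plate 3 across labels. Plate 1 stood apart under both labels, which by itself raises the correlations among plates 2 and 3. HF7 plate 3 differed past 1.5-fold at 17 miRNAs from HF6 plate 3 and at 23 from HF6 plate 2. HF6 plate 3 was nearer HF6 plate 2, at 12, so the pairing of plate 3 is not settled by these values. No library was a copy of another, since chi-square per degree of freedom between plates of a label was 15.2 to 193. Alternatives were run with DESeq2 1.42.0 and limma 3.58.1. The procedure was also run on simulated counts with the same dispersion for every miRNA. That setting holds no spread particular to a miRNA, so it cannot check the calls.

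Named miRNAs are the called ones that average 100 CPM or more under a label and have the same sign in all pairs (at most 10 a direction), filled to 5 a direction by the smallest p; 10 fixed names, miR-21-5p and miR-210-3p among them; the 4 most abundant members of each list; and, at a mean of 100 CPM or more over the 6 plates, the 6 with the widest gap between plate ratios. Seed mates, other arms and miRNAs outside this rule were named after their values were seen. The comparison, lists and names were chosen with earlier results of these data known. Locations and matches to other RNA classes were read from GRCh38 with GENCODE 29, and mature sequences from RefSeq (GRCh38.p14).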

Additional observations from a re-analysis of the deposited data

How the results depend on the processing

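Without the replicate block, 0 miRNAs were called (6 at an unadjusted p under 0.05 in edgeR), against 4 with it; 0 were called also without the block over all 12 replicated libraries, with all 6 HF7 and HF6 pairs as blocks, and after thinning (lowest adjusted p = 0.183 in edgeR). Leaving out each plate pair, or each library without the block, gave 0 calls each. RLE factors, a filter of 50 counts in 2 libraries and limma-voom gave 4 calls; total counts, no low-count filter, DESeq2 and, chosen after seeing the data, removal of the GC trend gave 3, the same 3 higher in HF7. miR-3613-5p then had adjusted p of 0.0606, 0.0505, 0.175 and 0.485. Over the 14 alternatives the log2 fold of miR-4485-3p ran between 0.50 and 0.98, of miR-4284 between 0.57 and 1.06, of miR-1246 between 0.43 and 0.86, and of miR-3613-5p between -0.94 and -0.43. The interaction gave 0 calls in each of its alternatives. miRNAs with 1 direction in all 3 pairs numbered 16 (3 higher, 13 lower) at a mean of at least 1000 CPM, against 49 at 100 CPM, 71 at 20 CPM, 49 with RLE factors (25 higher, 24 lower) and 45 with total counts (25 higher, 20 lower). With all 6 pairs as blocks, miR-374b-5p reversed to -0.40 ± 0.27 (adjusted p = 0.707 in edgeR), against 0.22 ± 0.16; the pellet pair enters there, and the cause was not tested. Another 157 log2 folds of named miRNAs that were not called changed sign in an alternative, each within 1 SE of 0 there or in the reported fit. With 3 plates a label and reads without molecular identifiers, miRNAs near 0.717 to 2.41 CPM could not be compared.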
